A study of Mus musculus with 13 samples.

Results

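The enzymes that write, copy and oxidise methylated cytosine were followed through early reprogramming of mouse embryonic fibroblasts (MEFs). The set held 8 genes, chosen by symbol: the DNA methyltransferases Dnmt1, Dnmt3a and Dnmt3b, the Uhrf factors Uhrf1 and Uhrf2, and the dioxygenases Tet1, Tet2 and Tet3. These were 8 of the 24495 genes in the deposited count table, and all 8 were among the 14607 genes abundant enough to be tested. Bulk RNA-seq was available for 13 libraries in 4 groups. All groups derive, per the labels, from primary Tet2-/- MEFs of embryonic day 12.5 (strain background V6.5 129XBI/6) that carry the doxycycline-inducible factors Pou5f1, Klf4, Sox2 and Myc (OKSM) with the rtTA transactivator. The Untreated group (n = 3, labelled MEF-control) had no reprogramming step, and from the labels it is uncertain whether these cells received the empty vector. The other groups were harvested at day 5 of reprogramming after infection with a pMXs retrovirus that was empty (pMXs, n = 3), carried wild-type Tet2 (Tet2-WT, n = 3) or carried a stalling mutant designed to oxidise methylcytosine mostly no further than hydroxymethylcytosine (Tet2-E, n = 4). Day 5 cultures grew on mitomycin-treated MEF feeder cells with doxycycline (2 µg/mL), LIF, the MEK inhibitor PD0325901 (1 µM) and the GSK3 inhibitor CHIR99021 (3 µM), and no step that removes feeders is described. The labels do not say whether replicates were separate cultures, so p-values measure the spread between these libraries.

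Methyl groups on CpG cytosines are copied at every round of DNA replication. Uhrf1 binds the half-methylated CpG left behind the replication fork and brings in Dnmt1, the maintenance methyltransferase, while its relative Uhrf2 binds similar sites but does not replace Uhrf1 in maintenance. Dnmt3a and Dnmt3b place methyl groups on sites that had none. The Tet enzymes remove the mark in steps, oxidising methylcytosine to hydroxymethylcytosine, formylcytosine and carboxylcytosine, of which the last products are cut out by the glycosylase Tdg. Pluripotent cells are known for high Uhrf1, Dnmt3b and Tet1, and fibroblasts for little Dnmt3b and Tet1.

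Total counts ran from 14052646 to 26265382 per library. Levels are given in CPM (reads scaled by library total, after trimmed-mean scaling), as mean ± standard deviation (SD) between libraries. A gene is said to have risen or fallen where its adjusted p was under 0.05 in edgeR's quasi-likelihood test, adjusted by the Benjamini-Hochberg method over all 14607 genes tested. The Untreated libraries carried their labelled identity: the 12 fibroblast markers (such as Col1a1, Pdgfra and Thy1) summed to 39100 to 41700 CPM. The same sum was 16800 to 19000 CPM with pMXs, 10700 to 12500 CPM with Tet2-WT and 14500 to 15700 CPM with Tet2-E. In bulk RNA, fewer cells of a type and less RNA per cell cannot be told apart. The pMXs to Untreated comparison also changes medium, feeders and culture time together with the reprogramming factors, which cannot be told apart.

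The promoters of the maintenance pair are shown first, because Dnmt1 and Uhrf1 rose together with replication genes at day 5. RefSeq windows (GRCm38.p6) reach from 250 bases before to 50 bases after an annotated start, and 13 windows matched the 8 genes. They were searched on both strands for the 8-base E2F sites TTTCGCGC and TTTGGCGC, the kind of site through which E2F factors act on S phase genes. Dnmt1 is on the minus strand at chr9:20907209-20959888 and has 3 annotated starts. Its window chr9:20952574-20952873 held a site on the opposite strand beginning at position -219. Another lay on the gene's own strand at position 33. Positions count from 0 at the annotated start of the window. Both sites lie inside the annotated gene, downstream of its other annotated starts. Which of the 3 starts these cells used was not tested. Uhrf1 is on the plus strand at chr17:56303321-56323486. The window chr17:56304063-56304362 held 1 site on the gene's own strand at position -185. A further Uhrf1 window, chr17:56303087-56303386, lies upstream, around the start of the gene, and held none. Which Uhrf1 start these cells used was not tested. The windows with sites are written 5′ to 3′ along the gene, with the sites in capitals.
Dnmt1: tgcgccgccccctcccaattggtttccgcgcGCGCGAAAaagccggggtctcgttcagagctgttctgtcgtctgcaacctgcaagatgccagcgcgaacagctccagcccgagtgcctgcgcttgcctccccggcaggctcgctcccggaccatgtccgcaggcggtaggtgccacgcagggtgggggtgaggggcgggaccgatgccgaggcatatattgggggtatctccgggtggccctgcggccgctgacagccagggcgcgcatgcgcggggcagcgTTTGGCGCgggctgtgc
Uhrf1: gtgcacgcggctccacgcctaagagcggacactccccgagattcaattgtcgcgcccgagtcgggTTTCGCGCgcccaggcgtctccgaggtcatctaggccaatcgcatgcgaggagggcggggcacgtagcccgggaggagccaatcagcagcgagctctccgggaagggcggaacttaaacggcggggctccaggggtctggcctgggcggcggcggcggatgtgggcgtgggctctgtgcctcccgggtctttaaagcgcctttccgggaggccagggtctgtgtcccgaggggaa
Among all 32851 windows of this length, 0.813% held a match, and 0.929% of the 27025 genes with a window had one. The other 6 genes had none in their windows, and of the 20 S phase list genes with a window 6 had one. A match describes the letters in the window and not binding. The CpG count differed among the windows of the set, from 2 at the most upstream Dnmt1 start to 57 at Tet2, against a median of 7 over all windows. Both windows with sites held 33 CpG, more than 91.4% of all windows. Both motifs contain CpG, so the share over all windows is not matched on CpG count.

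Per kilobase of the longest coding transcript (GENCODE vM21), the scale on which genes can be ranked, the Untreated MEFs expressed Uhrf2 most and Dnmt3b least. The mean order was Uhrf2 at 19.6, Dnmt1 at 14.7, Dnmt3a at 9.58, Uhrf1 at 8.80, Tet3 at 6.73, Tet2 at 4.78, Tet1 at 1.64 and Dnmt3b at 0.56 CPM per kilobase. Dnmt3a (8.86 to 10.8) and Uhrf1 (6.23 to 12.1) overlapped between libraries, as did Uhrf1 and Tet3 (6.23 to 7.17). The other neighbours in that order did not overlap. With pMXs the maintenance pair led, with Dnmt1 at 24.4 and Uhrf1 at 23.6 CPM per kilobase, overlapping each other. Uhrf2 followed at 17.7, Tet3 at 10.2, Dnmt3a at 9.12, Tet2 at 5.05, Dnmt3b at 1.91 and Tet1 at 1.7 CPM per kilobase. There Tet3 overlapped Dnmt3a, and Dnmt3b overlapped Tet1. Scaling by the union of exons exchanged the order of Dnmt1 and Uhrf1 with pMXs, where they stood at 22.7 and 23.1 CPM per kilobase.

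The step to day 5 without a Tet2 vector was read as pMXs against Untreated. Both parts of the maintenance machinery, the de novo enzyme Dnmt3b and the dioxygenase Tet3 were higher with pMXs. These 4 of the 8 genes rose, none fell, and 4 did not pass. The comparison changed much of the transcriptome: 70.1% of all genes tested passed and 35.0% of all genes tested were higher, so the share of the set that passed is not a result about these genes. In 5 of the 8 the libraries of both groups did not overlap, against 72.0% of all genes. The median log2 fold change was 0.34 over the 8 genes and -0.001 over all genes tested.

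Dnmt1 stood at 103, 87.8 and 68.2 CPM in Untreated replicates 1, 2 and 100, and at 153, 134 and 142 CPM in pMXs replicates 2, 100 and 250. Every pMXs library lay above every Untreated one. The rise was 0.73 ± 0.12 on the log2 scale (standard error, SE), or 1.66-fold (edgeR adjusted p = 7.11e-05). Uhrf1, the factor that guides Dnmt1 to replicated DNA, went from 43.4, 28.9 and 22.3 CPM to 89.8, 82.6 and 81.6 CPM in the same libraries. This was a 2.67-fold rise (log2 1.42 ± 0.17 SE, edgeR adjusted p = 2.39e-06). The groups were far apart, but the Untreated libraries varied among themselves, with a coefficient of variation of 34.1% against 5.26% with pMXs. The ratio within a library moved too: Untreated libraries held 32.8 to 42.2 Uhrf1 reads per 100 Dnmt1 reads and the day 5 libraries held 53.2 to 63.2, without overlap.

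**Figure D1:**
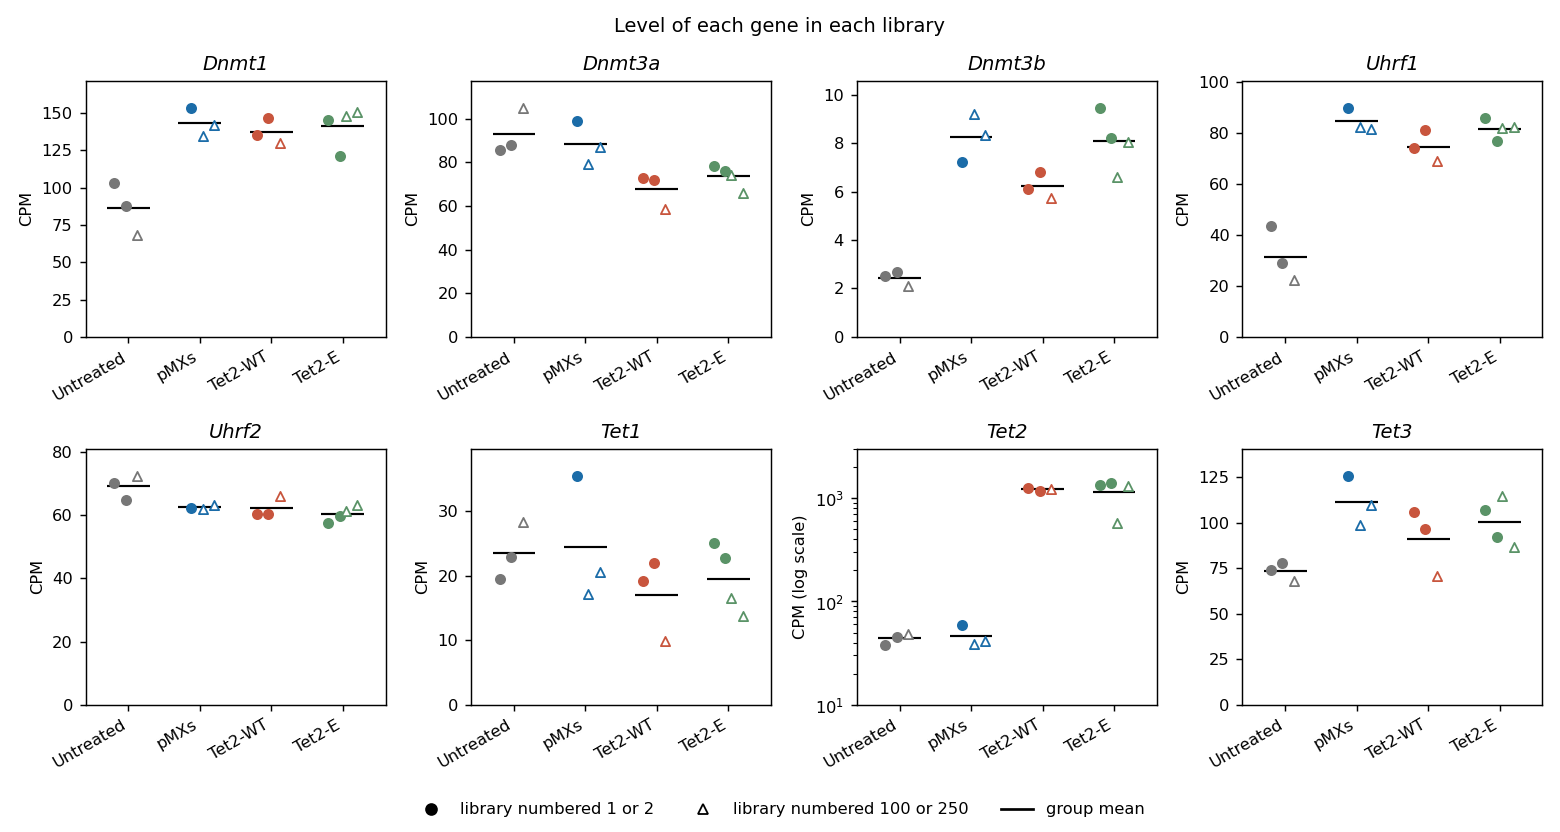
Level of each of the 8 genes in each of the 13 libraries, in CPM on axes that start at 0, except Tet2 on a log axis. Filled circles are libraries numbered 1 or 2, open triangles are libraries numbered 100 or 250, and the bar is the group mean; Dnmt1, Dnmt3b, Uhrf1 and Tet3 sit higher in the pMXs than in the Untreated libraries, and Tet2 is at 581 CPM or more in every library with a Tet2 vector and at 58.8 CPM or less elsewhere.

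Uhrf2, the relative of Uhrf1, did not pass. It was at 70.4, 64.7 and 72.3 CPM in Untreated replicates 1, 2 and 100 and at 62.3, 62.1 and 63.2 CPM in pMXs replicates 2, 100 and 250. All pMXs libraries were the lower ones, but the difference of -0.15 (95% interval -0.29 to 0) missed the threshold (edgeR adjusted p = 0.0658). Uhrf2 passed with a replicate block, a term for the replicate number (-0.18, edgeR adjusted p = 0.034), and with a term for the set of numbers (0.023). These terms use replicate numbers, which were not found to link Untreated to day 5 libraries. Uhrf2 also passed with a filter of 1 CPM (0.0475) and without Untreated replicate 2 (0.033). Within a library, Uhrf1 gave 30.9 to 61.6 reads per 100 Uhrf2 reads in Untreated MEFs and 105 to 149 in the day 5 cultures, so the more abundant paralogue in reads changed from Uhrf2 to Uhrf1. These ratios are descriptions with no test of their own.

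The 25 S phase genes, replication factors such as the Mcm helicase subunits, gave the backdrop for the maintenance pair. Of these, 24 rose, none fell and only Gins2 did not pass (0.02, edgeR adjusted p = 0.876), where 70.1% of all genes passed and 35.0% were higher. Their median log2 fold change was 1.22, against -0.001 over all genes. Mcm10, which helps to start replication, rose from 6.44 to 29.5 CPM, and Rrm2, a subunit of the enzyme that makes deoxyribonucleotides, from 68.1 to 218 CPM. The 25 genes summed to 605 to 793 CPM in Untreated MEFs and to 1650 to 1810 CPM across the day 5 libraries. Among the Untreated libraries the sum was 793, 690 and 605 CPM in replicates 1, 2 and 100, the same order as Uhrf1 and Dnmt1. The part of replication activity in the rise of either gene was not tested.

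**Figure D2:**
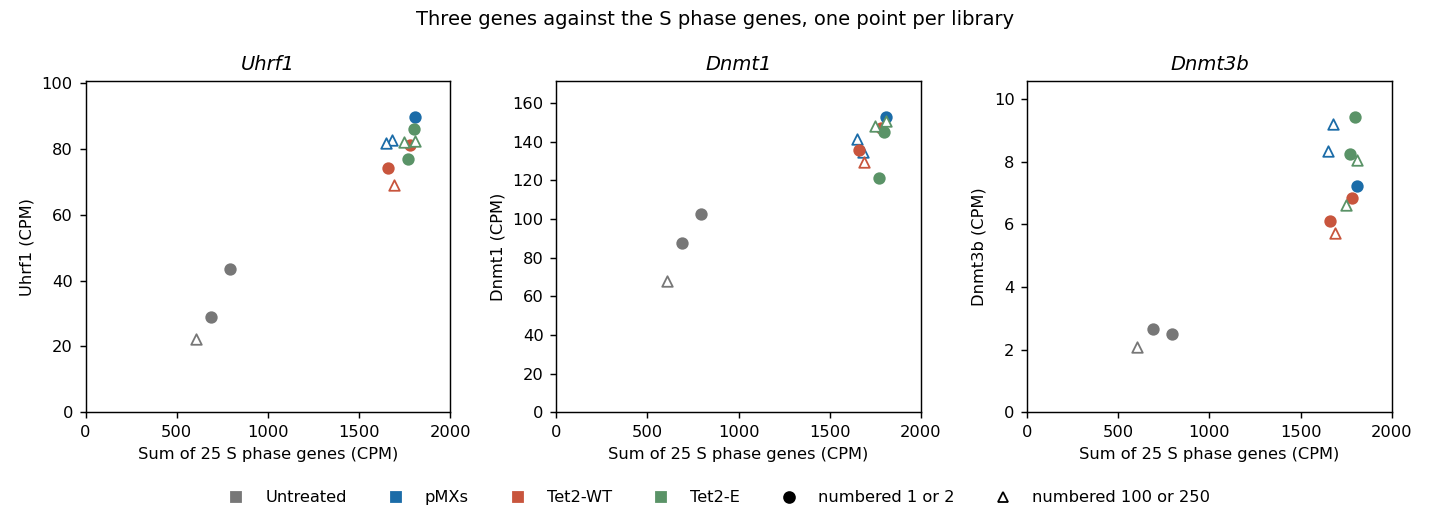
CPM of Uhrf1, Dnmt1 and Dnmt3b (vertical axes) against the summed CPM of the 25 S phase genes (horizontal axis), 1 point per library, coloured by group. Untreated libraries lie at 605 to 793 CPM of S phase genes and low levels of all plotted genes, and the day 5 libraries form a separate cloud at 1650 to 1810 CPM.

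The genes whose pattern was most like that of Uhrf1 and Dnmt3b were then listed. Likeness was the root mean square difference of centred log2 CPM over the 13 libraries, among 10639 genes. Nearest to Uhrf1 were Mcm5, a helicase subunit (0.074), Lmnb1, lamin B1 of the nuclear envelope (0.075), and Espl1, separase (0.081). For Dnmt3b they were Dtl (0.157), a factor of replication-coupled protein degradation, Nasp (0.166), a histone chaperone, and Kif20b (0.174), a kinesin of cytokinesis. Since the step from Untreated to day 5 dominates all these values, many genes with such a step are near each other on this measure.

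Of the de novo enzymes, Dnmt3b rose and Dnmt3a did not pass. Dnmt3b was at 2.50, 2.67 and 2.09 CPM in Untreated replicates 1, 2 and 100 and at 7.23, 9.19 and 8.35 CPM in pMXs replicates 2, 100 and 250. It rose 3.42-fold (log2 1.77 ± 0.16 SE, edgeR adjusted p = 1.26e-07), the largest rise among the 8 genes in this comparison. Its counts stayed small, at 43 to 60 reads per Untreated library and 114 to 240 per pMXs library. Dnmt3a, the main de novo enzyme of somatic cells, was at 85.8, 87.9 and 105 CPM in Untreated MEFs and at 98.9, 79.0 and 87.1 CPM with pMXs. The groups overlapped and the difference was -0.07 (95% interval -0.30 to 0.16, edgeR adjusted p = 0.559). Dnmt3b gave 2.00 to 3.04 reads per 100 Dnmt3a reads in Untreated MEFs and 7.31 to 12.2 in the day 5 cultures, so Dnmt3a gave most of the de novo enzyme reads throughout.

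**Figure D3:**
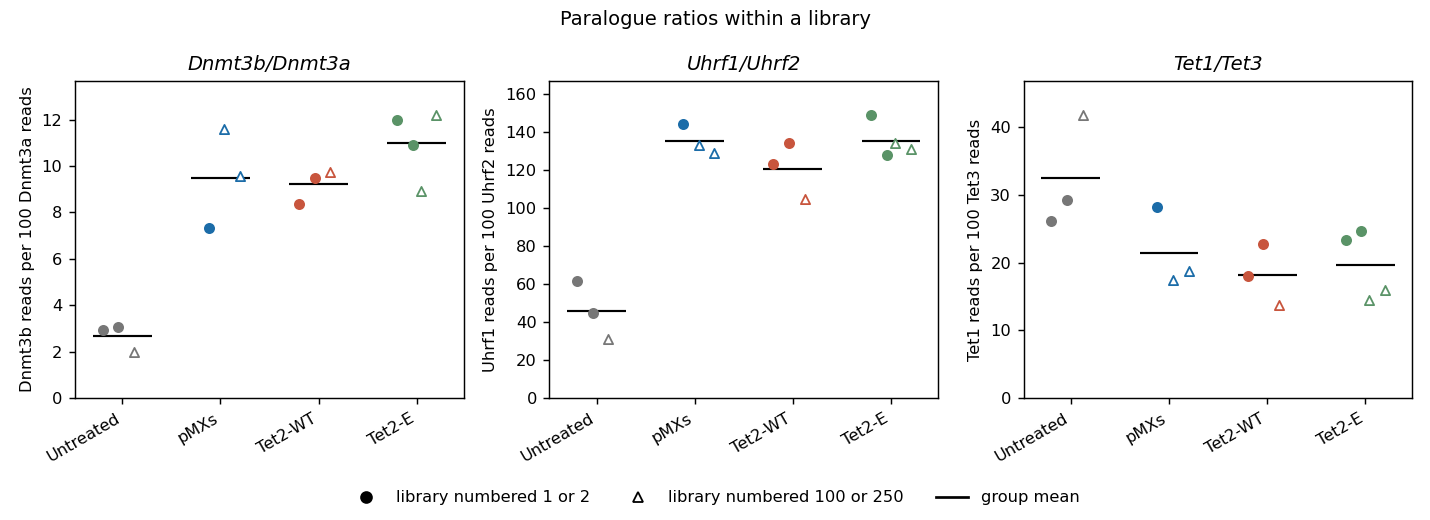
Reads of one paralogue per 100 reads of another within each library, for Dnmt3b over Dnmt3a, Uhrf1 over Uhrf2 and Tet1 over Tet3, by group with group means as bars. For Dnmt3b over Dnmt3a and Uhrf1 over Uhrf2 the day 5 libraries lie above all Untreated libraries; for Tet1 over Tet3 the lowest Untreated library (26.2) lies below the highest day 5 library (28.2).

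Of the dioxygenases Tet3 rose in pMXs against Untreated, and Tet1 and Tet2 did not pass. Tet3 was at 74.0, 78.1 and 68.0 CPM in Untreated replicates 1, 2 and 100 and at 125, 98.8 and 110 CPM in pMXs replicates 2, 100 and 250. The increase was 1.52-fold (log2 0.60 ± 0.14 SE, edgeR adjusted p = 0.00129), with no overlap. Tet1, the dioxygenase of pluripotent cells, ranged from 19.4 to 28.4 CPM in Untreated MEFs and from 17.2 to 35.4 CPM with pMXs (0.04, 95% interval -0.67 to 0.76, edgeR adjusted p = 0.92). Its pMXs libraries were the most uneven of the 8 genes in that group, with a coefficient of variation of 39.6%. Pluripotency markers summed to 445 to 489 CPM with pMXs and 3.75 to 8.28 CPM in Untreated MEFs. Most of the pMXs sum (mean 462 CPM) came from Pou5f1 (211 CPM) and Sox2 (228 CPM), which are among the inducible factors.

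Tet2 reads remained in cells that lack the working gene, at 37.8, 45.4 and 48.3 CPM in Untreated MEFs and 58.8, 39.1 and 41.1 CPM with pMXs (0.08, edgeR adjusted p = 0.815). In the day 5 cultures, reads from the disrupted locus and from feeder cells, whose genotype the labels do not give, cannot be told apart in a gene count. The same holds for reads from a Tet2 vector in the groups that received one. Feeders are described for the day 5 cultures, and the source of the Untreated reads was not tested. With the vectors, Tet2 reads were 26.3-fold the pMXs level with Tet2-WT (log2 4.72 ± 0.31 SE, edgeR adjusted p = 3e-06) and 25.1-fold with Tet2-E (4.65 ± 0.30 SE, adjusted p = 3.89e-05). Every library with a Tet2 vector was above every other library. In a fit of only the Tet2-E and pMXs libraries the second value was 4.64 and missed the threshold (adjusted p = 0.0744). Levels of both vectors did not differ beyond their spread (0.07, 95% interval -0.46 to 0.60), although replicate 100 of Tet2-E stood at 581 CPM against 1300 to 1400 CPM in its group. Genes nearest to Tet2 in pattern lay far from it: Glipr1 at 1.211, Nppb at 1.473 and Abcc12 at 1.476.

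With wild-type Tet2, Dnmt3a RNA was lower than with the empty vector, and apart from Tet2 no gene of the set passed as higher. In Tet2-WT against pMXs, 1 of the 8 genes was higher, Tet2 itself, and 1 was lower, Dnmt3a. Over all genes 12.5% passed, 6.01% higher and 6.52% lower, so 1 call beyond the supplied gene is near the background. Libraries did not overlap for 4 of the 8 genes (Tet2, Dnmt3a, Dnmt3b and Uhrf1), against 34.6% of all genes. The median log2 fold change was -0.23 over the 8 genes and -0.004 over all.

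Dnmt3a was at 72.8, 71.9 and 58.7 CPM in Tet2-WT replicates 1, 2 and 250, and at 98.9, 79.0 and 87.1 CPM in pMXs replicates 2, 100 and 250. All Tet2-WT libraries were below all pMXs and all Untreated libraries. It fell by 0.38 on the log2 scale (SE 0.11, edgeR adjusted p = 0.0309), from 88.3 ± 10.0 CPM to 67.8 ± 7.90 CPM (SD, n = 3 each). The call was lost without pMXs replicate 2 (adjusted p = 0.127), pMXs replicate 250 (0.0817), Tet2-WT replicate 2 (0.0541) or Tet2-WT replicate 250 (0.114). Libraries numbered 1 and 2 alone gave -0.45 (adjusted p = 0.00604) and those numbered 100 and 250 alone gave -0.50 (0.00387). Each of these values has 1 library in an arm, pMXs replicate 2 in the first and Tet2-WT replicate 250 in the second, and takes its spread from the other libraries, so neither replaces the calls lost above. Of the 12 fibroblast markers, 5 were lower and 1 higher with Tet2-WT than with pMXs, with a median of -0.74. Over all genes 6.52% were lower and 6.01% higher. In pMXs against Untreated, where 70.1% of all genes passed, all 12 markers were lower (median -1.89) and Dnmt3a, at -0.07, did not pass. The part of these markers in the fall of Dnmt3a was not tested.

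Dnmt3b was at 6.10, 6.82 and 5.73 CPM with Tet2-WT, below the 7.23 to 9.19 CPM of pMXs. The difference of -0.41 (95% interval -0.73 to -0.10) did not pass (edgeR adjusted p = 0.0828), and it passed in the fit with a term for the set of numbers (-0.46, adjusted p = 0.0443). The maintenance genes did not pass: Dnmt1 differed by -0.06 (95% interval -0.31 to 0.20), Uhrf1 by -0.18 (-0.52 to 0.16) and Uhrf2 by -0.01 (-0.15 to 0.14), with edgeR adjusted p of 0.827, 0.553 and 0.975. Of the 25 S phase genes none passed in this comparison by edgeR or DESeq2, and 1 had an unadjusted p under 0.05 in edgeR, with a median of -0.09. Tet3 was at 106, 96.8 and 70.8 CPM with Tet2-WT against 98.8 to 125 CPM with pMXs (-0.29, edgeR adjusted p = 0.214). Tet1 was at 19.1, 22.0 and 9.79 CPM against 17.2 to 35.4 CPM (-0.51, 95% interval -1.23 to 0.22, edgeR adjusted p = 0.393).

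**Figure D4:**
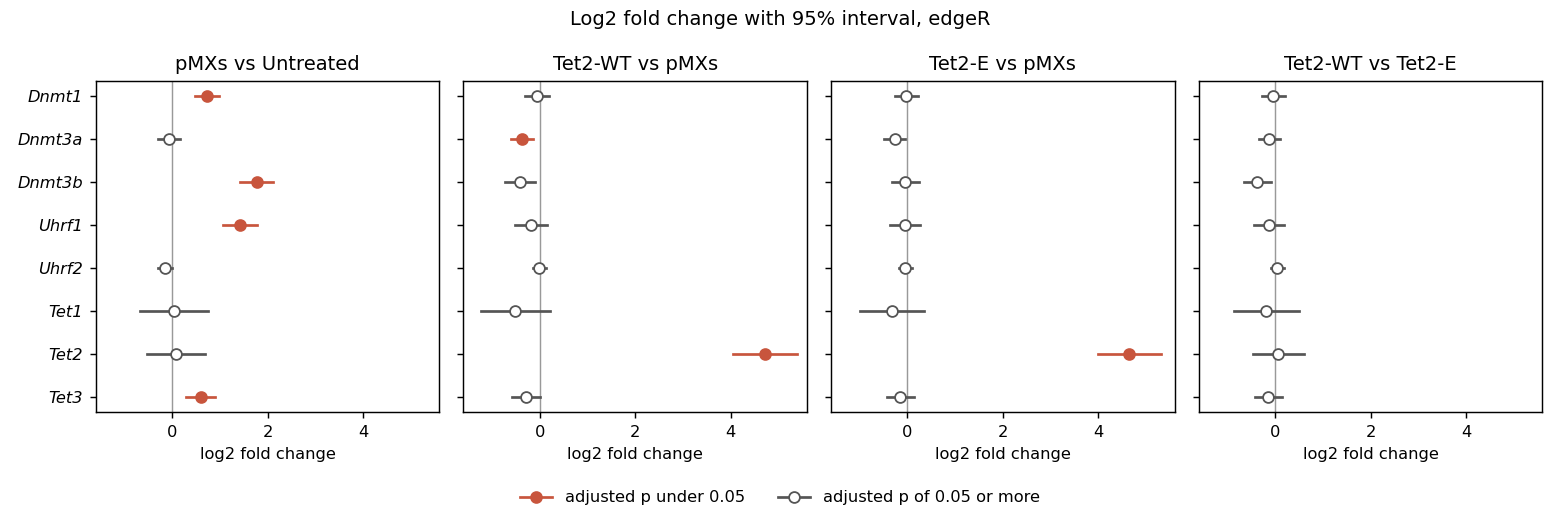
Log2 fold change of each gene in each of the 4 comparisons, as points with 95% intervals from edgeR; filled red points have an adjusted p under 0.05. Beyond Tet2, the called genes are Dnmt1, Dnmt3b, Uhrf1 and Tet3 in pMXs against Untreated and Dnmt3a in Tet2-WT against pMXs, and the intervals of Tet1 and Tet2 are the widest.

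With the stalling mutant, Tet2 passed and the other 7 genes did not. In Tet2-E against pMXs, 1 of the 8 genes was called, the supplied gene, where 0.0479% of all genes were (7 genes, or 93 with a replicate block). Libraries did not overlap for 2 of the 8 genes, Tet2 and Dnmt3a, against 10.2% of all genes. Dnmt3a was at 78.4, 75.8, 74.0 and 66.0 CPM in Tet2-E replicates 1, 2, 100 and 250, each below the lowest pMXs library. Its difference of -0.26 (95% interval -0.48 to -0.05) did not pass (edgeR adjusted p = 0.42). Dnmt1, Dnmt3b, Uhrf1 and Uhrf2 were within 0.05 of pMXs on the log2 scale, with intervals that reached at most -0.37 and 0.27. Tet1 was at 13.8 to 25.1 CPM (-0.32, edgeR adjusted p = 0.797) and Tet3 at 86.8 to 115 CPM (-0.15, adjusted p = 0.765).

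Wild-type and mutant Tet2 were also compared directly. None of the 8 genes was called in Tet2-WT against Tet2-E by edgeR or by DESeq2, where edgeR called 4.62% of all genes. For none of the 8 did the libraries separate, against 15.0% of all genes, and the median was -0.12 against -0.005. At an unadjusted p under 0.05 there was 1 of the 8, Dnmt3b, at 6.22 ± 0.56 CPM (SD, n = 3) with Tet2-WT and 8.09 ± 1.16 CPM (SD, n = 4) with Tet2-E. That difference was -0.37 (95% interval -0.66 to -0.08, edgeR adjusted p = 0.171). For Dnmt3a, which passed with Tet2-WT and not with Tet2-E against pMXs, the direct difference was -0.12 (-0.33 to 0.10, edgeR adjusted p = 0.707), so its levels under the 2 vectors were not shown to differ. Both comparisons with pMXs share the same 3 pMXs libraries.

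The numbers of the replicates carried a pattern of their own, most of all in Tet1. The labels speak of 2 sets of library preparation and do not say which library was in which, or what the replicate numbers mean. Within each of the 3 day 5 groups, every library numbered 1 or 2 had more Tet1 and more Dnmt3a than every library numbered 100 or 250. Tet1 was at 35.4 CPM in pMXs replicate 2 and at 17.2 and 20.6 CPM in replicates 100 and 250. With Tet2-WT it was at 19.1 and 22.0 CPM in replicates 1 and 2 and at 9.79 CPM in replicate 250, and with Tet2-E at 25.1 and 22.7 CPM against 16.6 and 13.8 CPM. In the Untreated group the order was the opposite, 19.4 and 22.9 CPM in replicates 1 and 2 and 28.4 CPM in replicate 100.

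**Figure D5:**
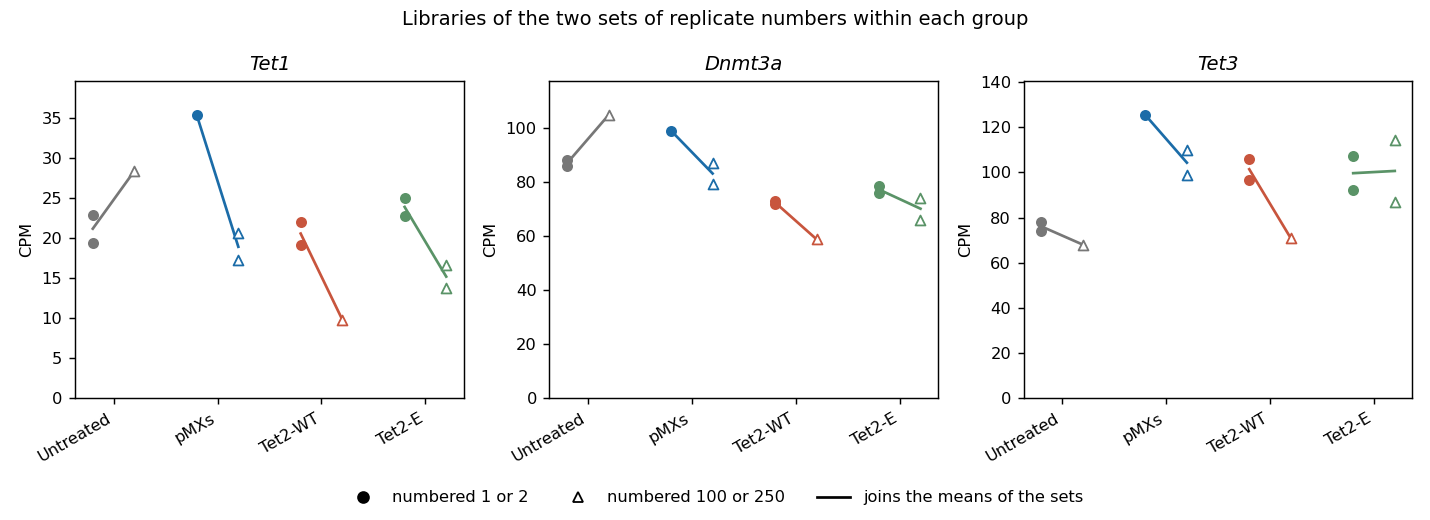
CPM of Tet1, Dnmt3a and Tet3 by group, with libraries numbered 1 or 2 (circles) to the left of those numbered 100 or 250 (triangles) and a line joining the means. Tet1 and Dnmt3a slope down in all 3 day 5 groups and up in the Untreated group; Tet3 slopes down in all groups but Tet2-E.

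Comparisons made within a set of numbers therefore differ from the pooled ones for Tet1. Tet2-WT has 2 libraries numbered 1 or 2 and 1 of the others, whereas pMXs has 1 and 2. Within libraries numbered 1 and 2, Tet1 was lower with Tet2-WT than with pMXs by -0.78 (edgeR adjusted p = 0.00217), and within those numbered 100 and 250 by -0.93 (0.00194). A single fit over all libraries with a term for the set gave -0.68 (adjusted p = 0.087). Each within-set contrast rests on 3 libraries, of which 1 is alone in its arm and is assumed to vary like the others. For pMXs against Untreated the Tet1 values within the sets had opposite signs, 0.75 in the first and -0.60 in the second. Dnmt3a in that comparison was 0.19 in the first set and -0.34 in the second. The numbers were not found to link Untreated to day 5 libraries, so the sets there may not pair like with like. Tet3 passed with Tet2-WT against pMXs only within the second set (-0.56, adjusted p = 0.0237). Dnmt1, Dnmt3b, Uhrf1 and Tet3 were higher with pMXs than in Untreated MEFs within both sets, with the same limit on pairing.

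Partners and cofactors of these enzymes were read from lists. Of 17 genes that act with DNA methyltransferases, 14 could be tested in pMXs against Untreated, and 11 rose while none fell, with a median of 0.45 against -0.001 for all genes. Over all genes 70.1% passed and 35.0% were higher in this comparison. Cdca7, which brings the remodeller Hells to chromatin, rose from 8.86 to 65.1 CPM (log2 2.87 ± 0.17 SE, edgeR adjusted p = 9.5e-10), and its paralogue Cdca7l rose from 5.80 to 26.6 CPM (2.19 ± 0.11 SE, adjusted p = 1.12e-10). The germline cofactor Dnmt3l and the maintenance inhibitor Dppa3 were too low to test in every group, at no more than 0.079 and 0.058 CPM; these were picked out after their values were seen. In the 3 comparisons among day 5 groups none of the 14 passed by edgeR or DESeq2, and 0 had an unadjusted p under 0.05 in edgeR.

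The next list held 12 enzymes of the metabolism of methyl groups and of 2-oxoglutarate, the Tet cosubstrate. Of these, 8 rose and 3 fell in pMXs against Untreated. Ogdh, which uses 2-oxoglutarate, was among those that fell (-0.28, edgeR adjusted p = 0.00787). Their median was 0.77, where 70.1% of all genes passed and 35.0% were higher. Shmt1, a serine hydroxymethyltransferase, rose from 7.32 to 31.5 CPM and Mtr, methionine synthase, from 17.3 to 62.5 CPM. Idh1, a cytosolic source of 2-oxoglutarate, fell from 143 to 108 CPM. Mtr was the one member that passed with Tet2-WT against pMXs, at 82.5 against 62.5 CPM (0.40 ± 0.12 SE, edgeR adjusted p = 0.0466).

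The list of Tet partners and of glycosylase repair had 16 of 23 tested genes higher and 3 lower in pMXs against Untreated. Their median was 0.71, where 70.1% of all genes were called and 35.0% were higher. Sall4, a zinc finger protein of pluripotent cells that binds hydroxymethylcytosine, went from 0.0498 to 12.2 CPM, and the deaminase Apobec1 rose from 5.01 to 52.7 CPM. Cxxc5, a CXXC protein related to the DNA-binding part of Tet enzymes, fell from 113 to 37.1 CPM, and the transcription factor Ebf1 from 76.1 to 27.9 CPM. Tdg, the glycosylase that acts after the Tet enzymes, was at 0.433 to 0.729 CPM in the 4 group means and did not pass in any comparison (named after its values were seen). Whether Tdg reads were lost to similar sequences elsewhere in the genome was not tested, so this low count does not show absence of its RNA. With Tet2-WT against pMXs, Cxxc5 fell further, to 28.8 CPM (-0.36 ± 0.09 SE, edgeR adjusted p = 0.019). Hmces, a protein that protects abasic sites, rose from 18.5 to 24.0 CPM (0.37 ± 0.12 SE, adjusted p = 0.0466).

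Readers of methylated DNA were the last list. In pMXs against Untreated 2 of 9 rose (Zbtb33, also called Kaiso, and Zbtb38), 2 fell (Zbtb4 and Mbd2) and 5 did not pass, with a median of 0.07, where 70.1% of all genes passed. With Tet2-WT against pMXs, where 12.5% of all genes passed, 2 of 9 rose: Zbtb38 from 61.1 to 98.3 CPM (0.69 ± 0.16 SE, edgeR adjusted p = 0.0118) and Zbtb4 from 119 to 148 CPM (0.31 ± 0.08 SE, adjusted p = 0.0123). Both are zinc finger proteins that bind methylated CpG. In Tet2-E against pMXs and in Tet2-WT against Tet2-E, none of the genes of these 4 lists passed by edgeR or DESeq2. At an unadjusted p under 0.05 in edgeR there was 1 in the first comparison, a methyl donor or 2-oxoglutarate enzyme. In the second there were 1 of those enzymes, 1 of the Tet partner and repair genes and 2 of the readers.

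Markers of other cell types moved with the groups. Epithelial markers summed to 2.12 to 3.38 CPM in Untreated MEFs and 217 to 390 CPM across the day 5 groups. The 8 macrophage markers in the table summed to 5.89 to 6.86 CPM in Untreated MEFs, 81.0 to 94.6 CPM with pMXs, 213 to 309 CPM with Tet2-WT and 93.5 to 127 CPM with Tet2-E. Most of the pMXs sum came from Laptm5, at 0.263 CPM in Untreated MEFs and 80.0 CPM with pMXs. In pMXs against Untreated, 3 of the 6 tested markers were higher and 3 lower, with a median of -0.41. In that comparison 70.1% of all genes passed. With Tet2-WT against pMXs, 4 of the 6 that could be tested were higher and none lower: Laptm5 from 80.0 to 251 CPM, Itgam from 0.791 to 7.13 CPM, Cd68 from 4.84 to 16.0 CPM and Csf1r from 0.165 to 0.856 CPM. Lyz2 and Cd53 did not pass there. The defining markers Ptprc and Adgre1 were too low to test, at no more than 0.045 CPM in the means of the day 5 groups. Of the other markers in this comparison, 2 of 6 epithelial ones were higher, and 2 of 5 endothelial and 2 of 7 pluripotency ones were lower, where 12.5% of all genes passed. Endothelial markers summed to 76.5 to 91.5 CPM at day 5, mostly from Tek (73.9 CPM with pMXs), with Pecam1 and Cdh5 at no more than 0.169 and 0.472 CPM. The part of changing cell mixtures in the values of the 8 genes was not tested.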

How the data were processed

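Read counts per gene, whole and not normalized as their values show, were deposited by the authors; the submitters' processing notes list the build mm9 and STAR 2.6.1a, bedtools 2.27.1, SAMtools 1.7, featureCounts 1.6.2, DESeq2 1.26.0 and R 3.6.2. The strand setting is not given in the sources used here, so reads of antisense transcripts cannot be told apart from those of the gene. The tests used edgeR 4.0.16 under R 4.3.3: filterByExpr by group (count minimum 10, total minimum 15), TMM scaling, 1 robust quasi-likelihood fit over 13 libraries and 4 contrasts, Benjamini-Hochberg adjustment. The SE is the log2 fold change divided by the square root of F, without its sign. The procedure was tested on simulated data.

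All 8 genes were named in every comparison. From each list came up to 2 genes per direction with the largest change among those called, with at least 1 CPM. One gene this rule names is not reported here. Likeness was named for genes whose group means spanned at least 2-fold, among genes with at least 5 CPM on average. The members and lists were chosen with earlier results of these data known.

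Same-numbered day 5 libraries correlated at 0.12 to 0.34 over 8 pairs in their deviations from group means, those with different numbers but both from 1 and 2, or both from 100 and 250, at 0.08 to 0.36, and the remaining pairs at -0.42 to -0.05. Same-numbered pairs with an Untreated library gave -0.04 to 0.17. The numbers were therefore taken to link day 5 libraries only, and 1 and 2 against 100 and 250 to form 2 sets. Alternatives were RLE scaling, DESeq2 1.42.0, other filters, a replicate block, a set term, fits within sets, fits of 2 groups, and leaving out each library.

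Gene positions and lengths are from GENCODE vM21 (GRCm38), and promoter windows from RefSeq (GRCm38.p6). No mm9 coordinates were used.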

Additional observations from a re-analysis of the deposited data

Results flagged for a closer look

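Tet2 in Tet2-E replicate 100 was at 581 CPM, against 1356, 1403 and 1299 CPM in replicates 1, 2 and 250. Its gap to the nearest library was 0.874 of the group's range, above Dixon's 95% critical value for 4 libraries. The same check was made for 8 genes in this group, and chance passes it in about 1 of 20 groups. Without this library the Tet2-E against pMXs comparison called 50 genes, with Tet2 the only one of the 8. Dnmt1 in Tet2-E replicate 2, at 122 CPM, came next at 0.811.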

How the results depend on the processing

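Over 32 pairs of a gene and a comparison, tried under up to 16 alternatives each, 13 kept call and direction throughout, 8 changed call in at least 1 alternative, and 13 uncalled values changed sign. The calls of Dnmt1, Dnmt3b, Uhrf1 and Tet3 in pMXs against Untreated held in all 15 alternatives. No value called in the main fit changed sign. Tet1 in pMXs against Untreated, uncalled in the main fit at 0.04, was -0.60 within numbers 100 and 250, and the cause was not tested. Tet2-E against pMXs called 7 genes in all, 138 by DESeq2, 17 with no filter, 93 with the replicate block, 152 with the set term, 103 and 83 within the first and second set of numbers, and 0 (with 0 of the 8 genes) when only those groups were fitted; leaving out a library gave 1 to 50. Tet2-WT against Tet2-E called 1052 genes with the set term and 1015 within numbers 1 and 2, and 335 to 675 without 1 library. Tet2-WT against pMXs called 1097 to 1821 genes and 1 or 2 of the 8 without 1 library, and 4 of the 8 within numbers 100 and 250. The replicate block changed the call of Uhrf2 in pMXs against Untreated and of no other of the 8 genes. Depth limits Dnmt3b most, at 43 to 240 reads in Untreated and pMXs libraries.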
